A study of Mus musculus with 12 samples.

Results

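The red cell membrane skeleton was followed through 9 genes in induced MEL cells with altered levels of LDB1. The genes were Sptb, Ank1, Epb41, Epb42, Dmtn, Add1, Add2, Tmod1 and Slc4a1, chosen by name as the spectrin skeleton and the anion exchanger band 3, to which it is anchored. They are 9 of the 37991 genes in each count file, and all 9 were among the 12837 genes with enough reads to be tested. MEL cells are a mouse erythroleukemia line that makes hemoglobin when induced in culture, and all 12 libraries came from induced cells. LDB1 is a nuclear protein that binds LIM-domain proteins and works in erythroid cells in a complex with TAL1, LMO2 and GATA1.

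The libraries fell into 4 groups of 3. FL libraries came from LDB1 knockdown cells that carried a full-length Ldb1 construct. The delta45 libraries came from LDB1 knockdown cells that carried the Ldb1 construct named delta 4/5. KD libraries came from LDB1 knockdown cells with neither construct, so all 3 of these groups share the knockdown. Control libraries came from cells labelled as control, which the RNA protocol calls wild type. The sources used here do not say how the knockdown was made, which promoter drove the constructs or whether each line is 1 clone. They also do not say whether the replicates of a group were separate cultures. The p-values therefore reflect the variation among these samples alone, and that variation may be technical.

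In a red cell, tetramers of alpha and beta spectrin form a net under the membrane. The net is tied to the lipid bilayer at a site where ankyrin joins beta spectrin to band 3, and at a junction where spectrin ends meet short actin filaments. Most of these proteins accumulate during erythroid maturation, and inherited defects in several of them give fragile, round or elliptical red cells. Sptb encodes beta spectrin, and Ank1 encodes the red cell ankyrin. Slc4a1 encodes band 3, which exchanges chloride and bicarbonate, and Epb42 encodes a catalytically inactive relative of transglutaminases that binds band 3 and ankyrin. Epb41 encodes a FERM-domain protein that strengthens the binding of spectrin to actin. Dmtn (dematin) bundles actin, Add1 and Add2 are the alpha and beta adducins that cap the fast-growing filament end, and Tmod1 (tropomodulin) caps the slow-growing end.

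RefSeq promoter windows of GRCm38.p6, which run from 250 bases before to 50 bases after an annotated start, were at hand for 6 of the 9 genes. Ank1, Dmtn and Slc4a1 are named only. The 6 genes had 8 windows, since Epb41 has 3 annotated starts. The counts do not tell which start the cells used. The windows of Epb42, Add1 and Add2 are printed 5′ to 3′. Epb42 is the window that held the AGATAA match, and the adducins are a pair of subunits whose RNAs moved in opposite directions in KD. Capitals mark AGATAA, a form of the GATA motif, on either strand (TTATCT on the printed one), and CANNTG, the E-box. Other forms of the GATA motif, such as AGATAG, were not searched or marked.
Epb42, chr2:121036828-121037127, minus strand: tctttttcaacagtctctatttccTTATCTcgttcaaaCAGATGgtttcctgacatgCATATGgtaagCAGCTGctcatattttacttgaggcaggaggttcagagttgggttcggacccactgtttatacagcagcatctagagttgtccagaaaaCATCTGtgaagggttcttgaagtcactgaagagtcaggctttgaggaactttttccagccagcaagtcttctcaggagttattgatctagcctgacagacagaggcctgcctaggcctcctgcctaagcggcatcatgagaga
Add1, chr5:34573414-34573713, plus strand: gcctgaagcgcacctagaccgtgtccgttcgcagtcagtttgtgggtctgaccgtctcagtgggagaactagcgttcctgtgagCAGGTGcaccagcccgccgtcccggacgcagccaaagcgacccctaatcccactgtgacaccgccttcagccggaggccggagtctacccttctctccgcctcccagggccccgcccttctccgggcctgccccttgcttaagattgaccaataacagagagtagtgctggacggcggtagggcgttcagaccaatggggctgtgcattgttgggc
Add2, chr6:86028431-86028730, plus strand: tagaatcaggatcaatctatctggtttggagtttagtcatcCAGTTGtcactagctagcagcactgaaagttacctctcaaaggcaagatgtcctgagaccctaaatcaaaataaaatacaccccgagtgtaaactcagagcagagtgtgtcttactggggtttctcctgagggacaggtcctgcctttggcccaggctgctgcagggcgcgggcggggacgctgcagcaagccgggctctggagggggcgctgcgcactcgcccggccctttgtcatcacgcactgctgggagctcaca

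AGATAA, searched on both strands, was found in 1 of the 8 windows, that of Epb42, at position -226 from the start. In all 32851 mouse windows its share was 11.2%. In Epb42 the match is followed, after 8 bases, by CAG at the head of an E-box, so that the opposite strand reads CTG, 8 bases and AGATAA. That composite, which overlaps both single motifs, was present in 0.362% of all windows. The E-box CANNTG was found in 6 of the 8 windows, against 72.3% of all windows. CCACACCC, a longer form of the CACCC motif, was found in 0 of 8, against 3.56%. Other forms of the CACCC motif were not searched, and the bases CACCC do occur in the printed Add2 window. Add1 and Add2 each held 1 E-box and no AGATAA.

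Each library held between 8783970 and 20464959 gene reads. Expression is given as CPM, the gene's count over the library's gene reads on a per-million scale with TMM scaling. Differences are given as log2 ± SE. A gene was called when edgeR's quasi-likelihood test on all 12 libraries put its adjusted p below 0.05, with Benjamini-Hochberg adjustment over all tested genes. The groups share a single estimate of each gene's spread in that test. The spread of KD therefore also enters the comparisons without KD. Ldb1 itself had 3696, 3411 and 3210 CPM in FL, 750.4, 781.2 and 764 CPM in delta45, 159.2, 132.2 and 97.1 CPM in KD, and 743.1, 772.6 and 637.1 CPM in control. The KD libraries spread widely: the median coefficient of variation of the 9 genes was 4.3% in FL, 4.25% in delta45, 34.1% in KD and 6.39% in control, and over all tested genes it was 20% in KD. All 9 genes were lowest in KD replicate 1, which was the lowest KD library for 36.3% of all tested genes and held the most Ldb1 of the 3. Results that rest on a single library are given with and without it. In bulk RNA, fewer cells of a type and less RNA per cell cannot be told apart.

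The erythroid markers listed for these cells (Gata1, Klf1, Alas2, Hba-a1, Hbb-bt, Epor, Tfrc and Nfe2) were all present, with summed levels of 25360 to 28850 CPM in FL, 4482 to 4653 CPM in delta45, 2915 to 5182 CPM in KD and 9820 to 10390 CPM in control. Megakaryocyte markers, 7 in number, summed to 2632 to 2774 CPM in FL, 133.5 to 154.3 CPM in delta45, 752.9 to 808.2 CPM in KD and 821.3 to 919.3 CPM in control, with Ppbp at 0 in control. The sums joined unlike changes. Of the 8 erythroid markers, 3 were lower and 5 not called in KD against control (24.1% of all tested genes were lower). In delta45 against control 5 were lower and 1, Tfrc, was higher (32.5 and 31.9%). Of the 6 megakaryocyte markers tested, 2 rose and 2 fell in KD against control (25.6 and 24.1%). Among these, Pf4 was 6.71-fold higher and Itga2b 2.91-fold lower. The part of these differences in the results was not tested. Markers of other lineages were low. The 8 myeloid and mast markers summed to at most 15.34 CPM in any library and Mcpt8 was at 0 in all groups. The 6 lymphoid markers summed to at most 45.27 CPM with Ms4a1 at 0. The 2 lymphoid markers tested, Lck and Cd3g, were both higher in KD than in control (25.6% of all tested genes were higher). Lck averaged 24.95 CPM in KD and 9.274 CPM in control, and Cd3g 13.06 and 5.297 CPM (adjusted p = 8.75e-05 and 0.000915). Both were lower in FL and in delta45 than in KD. The 7 stromal and endothelial markers summed to at most 10.33 CPM, with Col1a2 at 0 and Col1a1 at 6.466 CPM in control.

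**Figure D1:**
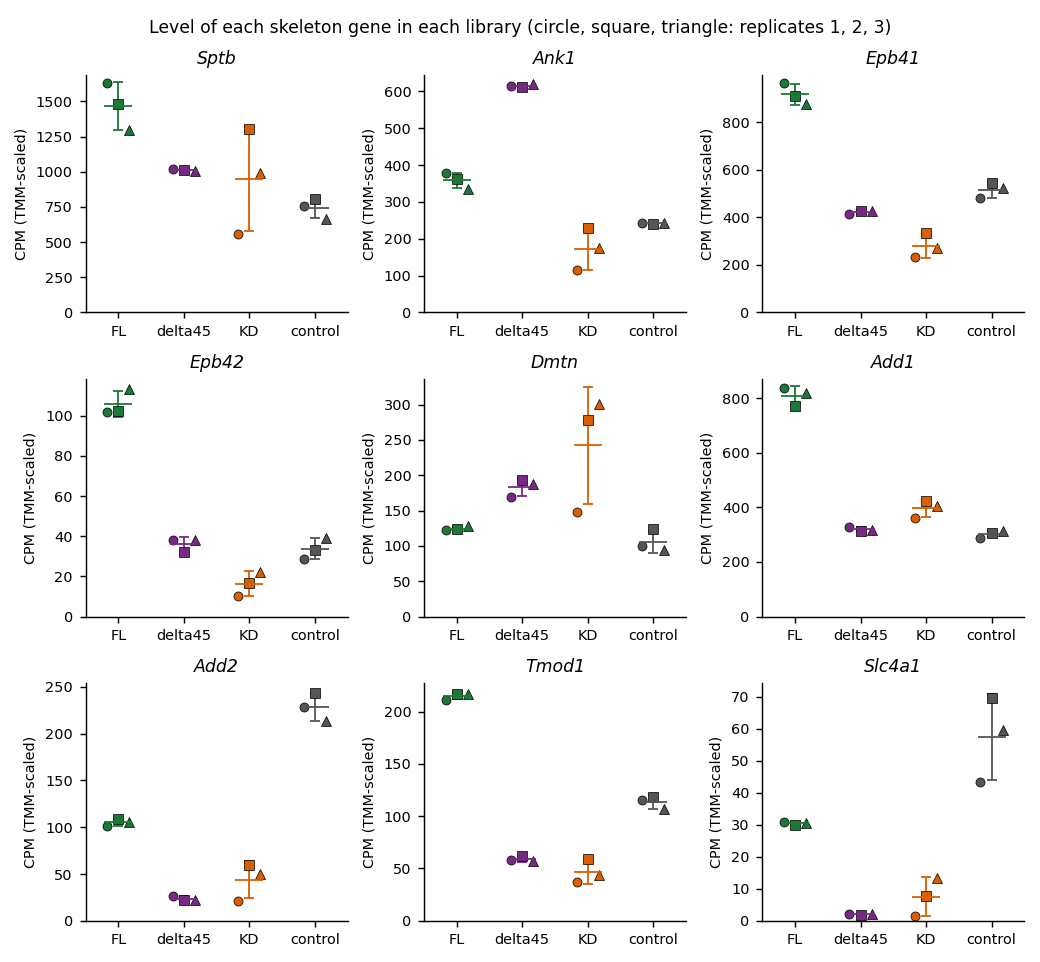
CPM after TMM scaling of the 9 genes in each library of FL, delta45, KD and control; circles, squares and triangles are replicates 1, 2 and 3, and bars are the mean ± SD (n = 3). Slc4a1 and Add2 stand highest in control, Ank1 in delta45, Dmtn in KD, and the other 5 in FL, and the KD points spread most.

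The question of the first comparison was what the skeleton genes did when LDB1 was knocked down. In KD against control, 6 of the 9 genes fell, 2 rose and 1 did not pass the test. Slc4a1 and Add2 fell by 7.76-fold and 5.22-fold, Tmod1, Epb42, Epb41 and Ank1 by 2.46-fold to 1.4-fold, while Dmtn rose 2.29-fold and Add1 rose 1.31-fold. Of all tested genes, 24.1% were lower and 25.6% were higher in this comparison. The median log2 change was -0.89 over the 9 genes and 0.02 over all tested genes. With full-length LDB1 added to the knockdown cells, 8 genes were higher in FL than in KD and 1, Dmtn, was lower. There the background was 26.3% higher and 31.7% lower, and the median log2 change was 1.27 over the 9 genes and -0.06 over all genes. FL against KD shares the KD libraries with KD against control, so the directions of these comparisons are not independent of each other.

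With the delta 4/5 construct, genes were called in both directions. In delta45 against KD, 4 genes rose (Ank1, Epb41, Epb42 and Tmod1) and 3 fell (Add1, Add2 and Slc4a1). Sptb and Dmtn did not pass the test. The background was 29.2% higher and 30.7% lower, and with 9 genes these counts lie near those shares. The calls for Tmod1, Add1, Add2 and Slc4a1 were each lost in at least 1 refit that left out 1 library, as given below. The median log2 change was 0.09 over the 9 genes and -0.01 over all genes. The difference between the constructs was tested directly: in FL against delta45, 6 genes were higher in FL (Epb41, Epb42, Add1, Add2, Tmod1 and Slc4a1), 2 were lower in FL (Ank1 and Dmtn), and Sptb was not called. The background was 25.8% higher and 27.0% lower, and the median log2 change was 1.34 over the 9 genes and -0.01 over all genes. Ldb1 RNA was also 4.49-fold higher in FL than in delta45, so the form of the construct and the amount of Ldb1 RNA cannot be told apart. The counts do not separate reads of a construct from those of the cells' own Ldb1.

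Against control, FL had 6 genes higher, 1 lower (Add2) and 2 not called (Dmtn and Slc4a1), where the background was 28.1% higher and 31.2% lower. In delta45 against control, 2 genes were higher (Ank1 and Dmtn), 4 were lower (Epb41, Add2, Tmod1 and Slc4a1) and 3 were not called (Sptb, Epb42 and Add1), with a background of 31.9% higher and 32.5% lower. The median log2 change of the 9 genes was 0.83 in FL and 0.08 in delta45, each against control. A TMM factor of 0.871 to 0.88 in the FL libraries bears on every FL value. With library totals in place of TMM, the median log2 change of all genes was -0.33 against KD, -0.28 against delta45 and -0.23 against control. The share of called genes that were higher in FL was then 26.7, 29.2 and 31.8%, against 45.4, 48.8 and 47.4% with TMM. No skeleton gene changed direction under that scaling.

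**Figure D2:**
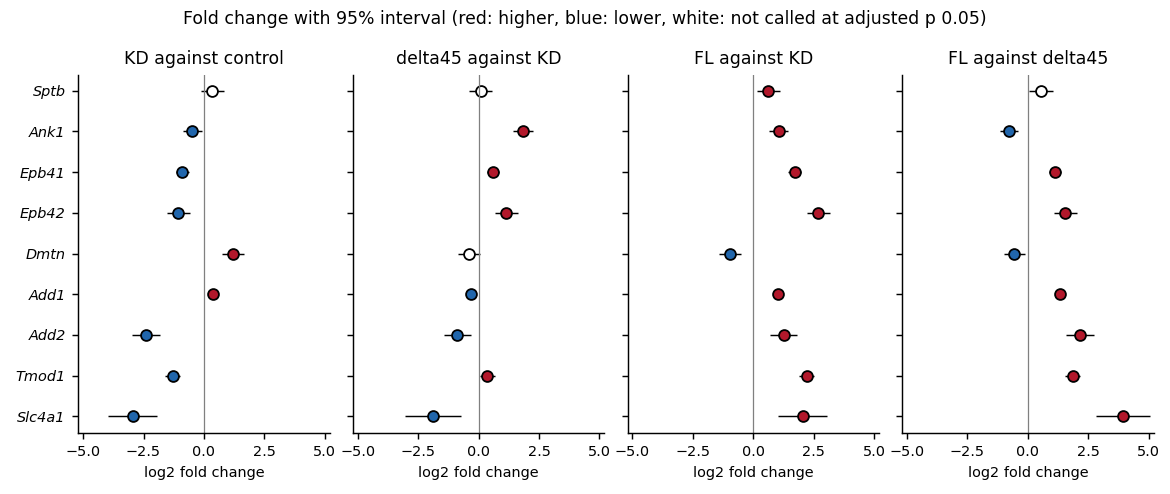
Log2 fold change of each gene (point) with its 95% interval (line) in 4 comparisons, the group named first over the second; red is higher, blue is lower and white is not called at an adjusted p of 0.05. In FL against KD 8 of 9 genes lie right of 0 and Dmtn lies left of it.

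Band 3 showed the widest range of the 9 genes. Slc4a1 had 30.84, 29.99 and 30.66 CPM in FL, 2.062, 1.789 and 2.119 CPM in delta45, 1.464, 7.816 and 13.4 CPM in KD, and 43.29, 69.81 and 59.53 CPM in control. The delta45 values rest on 44, 28 and 28 reads, and the KD values on 21, 72 and 153 reads. No FL, KD or delta45 library reached the control range, and the KD and delta45 libraries overlapped. Slc4a1 fell by 2.96 ± 0.465 in KD against control on the log2 scale (adjusted p = 0.000194). Dropping KD replicate 1 gave a smaller log2 change of -2.43, and dropping KD replicate 3 gave a larger one of -3.75. Slc4a1 rose by 2.04 ± 0.46 in FL against KD (adjusted p = 0.00208). This rise shrank to 1.57 when KD replicate 1 was dropped, and grew to 2.83 when KD replicate 3 was dropped. In FL Slc4a1 was 15.3-fold higher than in delta45 (log2 3.93 ± 0.515, adjusted p = 2.81e-05).

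The level of Slc4a1 in FL was not called different from control, at 30.5 ± 0.445 CPM in FL and 57.54 ± 13.37 CPM in control (SD, n = 3 each; adjusted p = 0.0753), although the libraries did not overlap and the 95% interval of the log2 change ran from -1.82 to -0.01. The call was made when library totals, no filter on low counts or the 6 libraries alone were used (adjusted p = 0.0292, 0.0194 and 0.000398). In delta45 Slc4a1 fell below KD by 1.89 ± 0.534 (adjusted p = 0.00817), a call that was lost without KD replicate 3 (log2 -1.10, adjusted p = 0.0745). In delta45 it was 28.8-fold lower than in control (adjusted p = 3.99e-06).

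Epb42, whose product sits between band 3 and ankyrin, had 101.8, 102.5 and 113.3 CPM in FL, 37.91, 32.2 and 38.3 CPM in delta45, 10.04, 16.72 and 22.41 CPM in KD, and 28.72, 33.4 and 39.2 CPM in control. All FL libraries lay above all others, all KD libraries lay below, and delta45 and control overlapped. Epb42 fell by 1.06 ± 0.223 in KD against control (adjusted p = 0.00167). It was 6.5-fold higher in FL than in KD, 2.93-fold higher than in delta45 and 3.13-fold higher than in control (adjusted p = 6.93e-07, 4.42e-05 and 2.73e-05). In delta45 it was 2.22-fold higher than in KD (adjusted p = 0.000701), and the log2 difference from control was 0.09 with a 95% interval of -0.37 to 0.55.

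Ank1 was the only one of the 9 genes whose mean was highest with the delta 4/5 construct. It had 378.3, 361 and 336.3 CPM in FL, 615.3, 612 and 620.5 CPM in delta45, 114.3, 229.8 and 174.3 CPM in KD, and 242.2, 239.7 and 243.5 CPM in control. No 2 groups overlapped. Ank1 was 3.57-fold higher in delta45 than in KD (adjusted p = 4.79e-06) and 2.55-fold higher than in control (adjusted p = 2.97e-05), and in FL it was 1.72-fold lower than in delta45 (adjusted p = 0.0026). In FL it was 2.08-fold higher than in KD and 1.48-fold higher than in control, and the difference from control was not called with library totals (log2 0.35, adjusted p = 0.0959).

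The fall of Ank1 in KD against control was small (log2 -0.49 ± 0.181, adjusted p = 0.0395). It was no longer called without KD replicate 1 or 3, without any 1 of the control libraries, or in the 6 libraries alone; over the single left-out libraries the log2 change ran from -0.75 to -0.26 and the adjusted p from 0.00189 to 0.0809. An antisense gene, Gm15816, overlaps 862 of the 13527 exonic bases of Ank1, and the library kit does not mark strand. Gm15816 averaged 0.741 CPM in FL, 1.227 CPM in delta45, 0.148 CPM in KD and 0.179 CPM in control.

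Beta spectrin was called in 2 of the 6 comparisons by the test on all 12 libraries, the fewest of the 9 genes. That count depends on the spread shared by the groups. Sptb had 1629, 1483 and 1293 CPM in FL, 1018, 1010 and 1002 CPM in delta45, 557, 1303 and 990.3 CPM in KD, and 758.1, 808.7 and 666.4 CPM in control. The FL libraries lay above delta45 and control, and the KD libraries overlapped all 3 other groups. Sptb was 1.97-fold higher in FL than in control (adjusted p = 0.00216). It was 1.55-fold higher in FL than in KD (adjusted p = 0.0279), a call lost without FL replicate 1 or 2 (adjusted p = 0.0893 and 0.0599), with library totals and in the 6 libraries alone.

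In KD against control Sptb had a log2 difference of 0.35 with a 95% interval of -0.13 to 0.83 and was not called. Without KD replicate 1 it was called higher in KD (log2 0.62, adjusted p = 0.00164). The log2 difference of FL from delta45 was 0.54, with a 95% interval of 0.06 to 1.02 and an adjusted p of 0.0573. That difference was called by DESeq2, with no filter, in the 6 libraries alone and with RLE scaling (adjusted p = 0.0339, 0.0177, 0.000149 and 0.05 after rounding). In delta45 Sptb differed by a log2 of 0.09 from KD (95% interval -0.39 to 0.57) and by 0.44 from control (95% interval -0.04 to 0.92), and neither was called. The difference of delta45 from control was called with no filter and in the 6 libraries alone (adjusted p = 0.0428 and 0.0014). All delta45 libraries lay above all control libraries.

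At the spectrin-actin junction, Epb41 and Tmod1 had the same order of groups. Epb41 had 963.2, 911.2 and 874.6 CPM in FL, 412.9, 424.8 and 425.7 CPM in delta45, 234.6, 332.1 and 269.2 CPM in KD, and 479.7, 544 and 523.6 CPM in control. No 2 groups overlapped. Epb41 fell by 0.89 ± 0.121 in KD against control (adjusted p = 6.22e-05), was 3.29-fold higher in FL than in KD (adjusted p = 1.77e-07), and was 2.18-fold higher in FL than in delta45. It was 1.78-fold higher in FL than in control (adjusted p = 6.7e-05). In delta45 it was 1.51-fold higher than in KD (adjusted p = 0.000988). It was 1.22-fold lower in delta45 than in control (adjusted p = 0.0472), and that call was lost without any 1 of the delta45 libraries, without control replicate 2 or 3, with library totals and with no filter (adjusted p = 0.0742 to 0.145).

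Tmod1 had 211.3, 216.8 and 216.9 CPM in FL, 57.97, 62.04 and 57.44 CPM in delta45, 36.67, 58.62 and 43.69 CPM in KD, and 115.4, 118.6 and 106.5 CPM in control. FL lay above all others and control above delta45 and KD, which overlapped. Tmod1 fell by 1.30 ± 0.141 in KD against control (adjusted p = 1.12e-05), and it was 4.65-fold higher in FL than in KD, 3.63-fold higher than in delta45 and 1.9-fold higher than in control (adjusted p = 7.41e-08, 1.87e-07 and 8.36e-05). In delta45 it was 1.92-fold lower than in control (adjusted p = 6.31e-05). Its rise in delta45 against KD (log2 0.36 ± 0.14, adjusted p = 0.0417) was lost without KD replicate 1 or 3, without any 1 of the delta45 libraries and in the 6 libraries alone (adjusted p = 0.0539 to 0.125). Tstd2, on the opposite strand, overlaps 1287 of the 3946 exonic bases of Tmod1. Tstd2 averaged 57.4 CPM in FL, 44.29 CPM in delta45, 33.21 CPM in KD and 55.54 CPM in control.

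The adducin subunits were called in opposite directions in KD and in FL, each against control. They went the same way in FL against KD, delta45 against KD and FL against delta45. Add1 had 838, 770.3 and 817.9 CPM in FL, 327.5, 314.8 and 317.5 CPM in delta45, 360, 423.5 and 406.4 CPM in KD, and 288.6, 306.4 and 312.9 CPM in control. Add2 had 101.7, 109 and 105.6 CPM in FL, 26.34, 22.56 and 22.25 CPM in delta45, 21.54, 60.03 and 50.43 CPM in KD, and 228.9, 243.1 and 213.9 CPM in control. Add1 was highest in FL, with all 3 libraries above all others, whereas Add2 was highest in control, with all 3 libraries above all others.

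In KD against control Add1 rose by 0.39 ± 0.0937 (adjusted p = 0.00389) and Add2 fell by 2.38 ± 0.265 (adjusted p = 1.32e-05). In FL against KD both rose, Add1 by 2.04-fold and Add2 by 2.41-fold, and in FL against control Add1 was 2.67-fold higher and Add2 was 2.17-fold lower (adjusted p = 7.16e-08 and 0.00203). In delta45 against KD both fell, Add1 by 1.24-fold (adjusted p = 0.0119) and Add2 by 1.84-fold (adjusted p = 0.0109). The call for Add1 was lost without KD replicate 2, delta45 replicate 2 or delta45 replicate 3 (adjusted p = 0.0657, 0.0658 and 0.0627), and the call for Add2 without KD replicate 2 (log2 -0.57, adjusted p = 0.0765). Against delta45, FL was 2.53-fold higher in Add1 and 4.44-fold higher in Add2. Add2 in delta45 was 9.62-fold lower than in control (adjusted p = 4.65e-07), while Add1 differed by a log2 of 0.08 (95% interval -0.12 to 0.28) and was not called.

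Dmtn was highest in KD, where it stood above control, and was the single one of the 9 genes called lower in FL than in KD. It had 122.5, 123.6 and 127.8 CPM in FL, 169.7, 193.8 and 187.9 CPM in delta45, 147.9, 277.7 and 301.3 CPM in KD, and 99.98, 123.6 and 94.44 CPM in control. The KD and delta45 libraries lay above FL and control and overlapped each other, as did FL and control. Dmtn rose by 1.19 ± 0.207 in KD against control (adjusted p = 0.000402) and was 1.94-fold lower in FL than in KD (adjusted p = 0.00149). In delta45 it was 1.73-fold higher than in control (adjusted p = 0.00423). The lower level in FL than in delta45 (log2 -0.56 ± 0.205, adjusted p = 0.0344) was lost on leaving out any 1 of the 6 libraries, with adjusted p of 0.063 to 0.115. The difference of delta45 from KD was not called (log2 -0.40, 95% interval -0.84 to 0.04, adjusted p = 0.107), but it was called without KD replicate 1 (log2 -0.63, adjusted p = 0.000454). Between FL and control the log2 difference was 0.23 with a 95% interval of -0.21 to 0.68.

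Set per length of exon, the genes were compared with each other. The length is that of all annotated exons of a gene together, whichever of them the cells used. Bases shared with another gene, 1287 of 3946 in Tmod1, were not taken out. The effect of this on the order of the genes was not tested. On the scale of CPM per kb, Sptb had the highest mean of the 9 in every group. It was at 120.9 ± 13.88 in FL, 83.16 ± 0.642 in delta45, 78.22 ± 30.84 in KD and 61.28 ± 5.94 in control (SD, n = 3). Slc4a1 had the lowest mean in FL, delta45 and KD, at 6.235, 0.407 and 1.545 CPM per kb. In control, at 11.77, it stood above Dmtn (10.81 CPM per kb) and Epb42 (6.235), with libraries that overlapped those of Dmtn. In KD the libraries of Sptb overlapped those of Add1, and the libraries of Slc4a1 overlapped those of Epb42 and Add2. In FL, Add1 came next after Sptb with 94.47 CPM per kb, then Epb41 with 57.48 and Tmod1 with 54.49, and the libraries of this last pair overlapped. Ank1 was second in delta45 with 45.53 CPM per kb, while it was at 26.5 in FL, 12.77 in KD and 17.88 in control, below Add1 and Epb41 in those 3 groups. Add2 stood at 10.4 CPM per kb in FL, 2.339 in delta45, 4.34 in KD and 22.55 in control, above Ank1 in control and below it in FL, delta45 and KD.

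**Figure D3:**
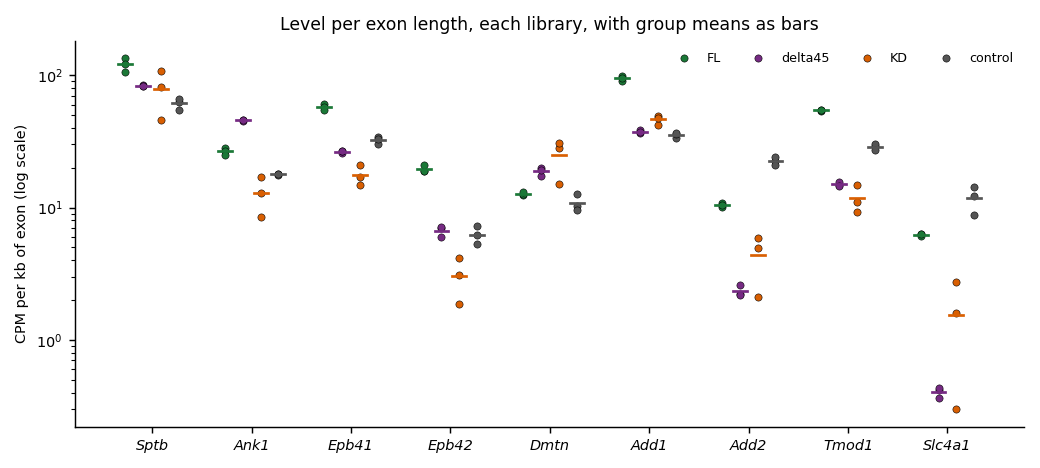
CPM per kb of exon on a log axis for the 9 genes in FL, delta45, KD and control; dots are libraries and bars are group means (n = 3). Sptb has the highest mean in each group, and Slc4a1 spans the widest range, from 0.299 in a KD library to 14.27 in a control library.

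Several of these genes have relatives that other cells use, and the ratio of reads within a library does not depend on the scaling between libraries. The reads of Add2 over those of Add1 were 0.121, 0.142 and 0.129 in FL, 0.0805, 0.0717 and 0.0702 in delta45, 0.0599, 0.142 and 0.124 in KD, and 0.793, 0.793 and 0.684 in control. Every library with the knockdown lay below every control library. The log2 ratio averaged -2.94 in FL, -3.76 in delta45, -3.30 in KD and -0.41 in control. It was 2.53 lower in FL than in control, and the FL and KD libraries overlapped (exact permutation test, p = 0.7, adjusted p = 0.72).

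Tmod1 over Tmod3, the tropomodulin found in most tissues, was 0.638 to 0.656 in FL, 0.349 to 0.443 in delta45, 0.399 to 0.502 in KD and 0.799 to 0.958 in control. Tmod3 itself rose in FL, to 331.8 ± 7.564 CPM against 127.7 ± 6.605 CPM in control (adjusted p = 4.49e-07), so the FL libraries lay below control in this ratio and above control in the level of Tmod1. Slc4a1 over Slc4a2, the anion exchanger found in most tissues, was 0.31 to 0.336 in FL, 0.0265 to 0.0333 in delta45, 0.0173 to 0.143 in KD and 0.416 to 0.608 in control. Epb41 over Epb41l2 was 11.4 to 12.7 in FL, 6.26 to 7.53 in delta45, 3.15 to 4.17 in KD and 5.38 to 5.96 in control, with no overlap of groups.

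Sptb over Sptbn1, the beta spectrin of other cells, was 11 to 13 in FL, 5.86 to 6.65 in delta45, 2.23 to 9.65 in KD and 4.12 to 4.57 in control. FL lay above all others and KD overlapped delta45 and control. The ankyrin gene Ank3 had 2 reads in all FL libraries together, 2 in delta45 and 4 in KD, against 378 in control, so the ratio of Ank1 to Ank3 has no usable value in FL, delta45 and KD. Ank3 averaged 10.23 ± 0.775 CPM in control. In all, 36 ratio differences were tested, and with 3 libraries against 3 the exact two-sided permutation p cannot go below 0.1 (adjusted p = 0.124), so none could pass the threshold.

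**Figure D4:**
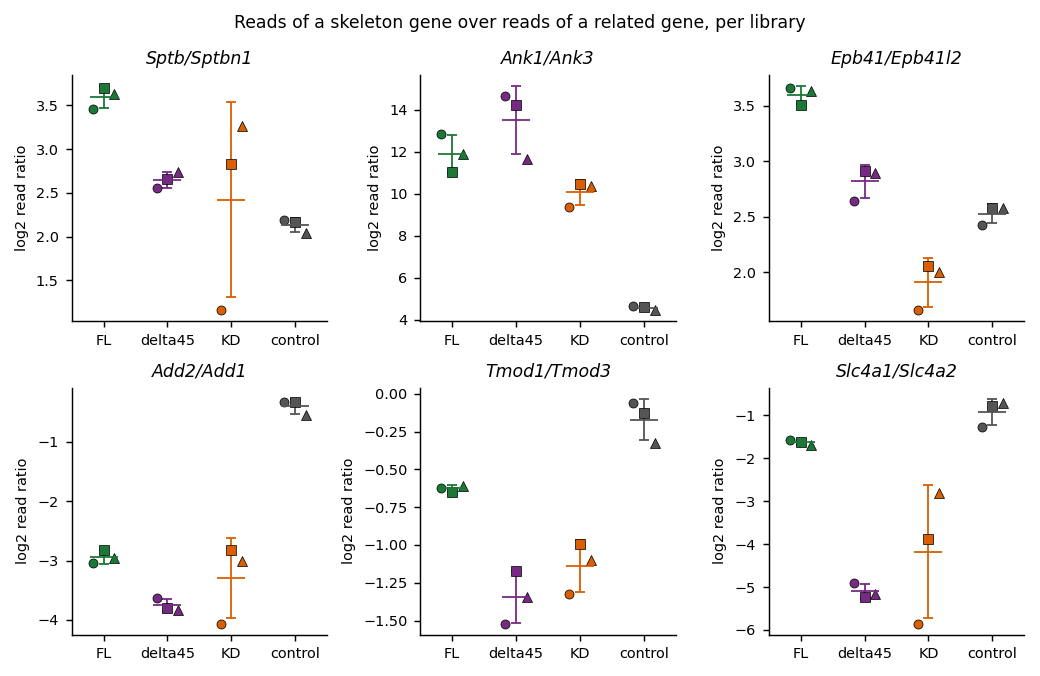
Log2 ratio of the reads of a skeleton gene to those of a related gene in each library of FL, delta45, KD and control, with 0.5 read added to each; bars are the mean ± SD (n = 3) and the axes do not start at 0. Add2/Add1 is near -0.41 in control and under -2.8 in every other library; the Ank1/Ank3 values outside control rest on 2 to 4 reads of Ank3 per group.

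Among all 21 listed relatives of the 9 genes, 16 were tested. In KD against control 4 of the 16 rose and 5 fell (25.6 and 24.1% of all tested genes), and in FL against KD 4 rose and 5 fell (26.3 and 31.7% of all tested genes). These counts lie near those shares. Tmod4, a tropomodulin best known from muscle, rose to 39.27 ± 15.25 CPM in KD, against 2.91 ± 0.349 CPM in control (log2 3.74 ± 0.266, adjusted p = 3.62e-07), and it was at 141.1 ± 9.848 CPM in FL. Sptan1, the alpha spectrin of most cells, was 3.06-fold higher in KD than in control (adjusted p = 1.51e-06). It averaged 103.3 CPM in FL, 58.93 CPM in delta45, 213.5 CPM in KD and 69.81 CPM in control. Tgm2, the active transglutaminase related to Epb42, was at 18.6 CPM in FL, 6.04 CPM in delta45, 151.4 CPM in KD and 73.18 CPM in control. It was lower in FL than in KD (log2 -3.03 ± 0.204, adjusted p = 9.94e-08) and lower in delta45 than in KD (log2 -4.65 ± 0.222, adjusted p = 1.15e-08). Ank2 was at 26.16 ± 2.826 CPM in delta45 and 4.488 ± 0.831 CPM in KD (adjusted p = 4.59e-07), and, as with Ank1, its mean was highest in delta45. Of the 16, 3 rose and 6 fell in delta45 against KD (29.2 and 30.7% of all tested genes), and 6 rose and 2 fell in FL against delta45 (25.8 and 27.0%). Against control, 4 rose and 7 fell in FL (28.1 and 31.2% of all tested genes), and 3 rose and 8 fell in delta45 (31.9 and 32.5%).

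Of the 11 other skeleton and junction genes tested, 2 rose and 2 fell in KD against control, where 25.6% of all tested genes rose and 24.1% fell. In FL against KD 5 rose and 2 fell, where 26.3% of all tested genes rose and 31.7% fell. Actb, the beta actin whose short filaments sit at the junction, was 5-fold higher in KD than in control, with 1717 ± 273.4 CPM in KD and 343.5 ± 30.96 CPM in control (adjusted p = 1e-07). It was also higher in FL (2539 CPM) and delta45 (1662 CPM) than in control. Reads that aligned to several places were not assigned to genes. They made up 42.26 to 47.12% of the tallied reads in FL, 38.69 to 39.22% in delta45, 42.69 to 48.51% in KD and 50.6 to 53.31% in control, and their part in the Actb values was not tested. Gypc, a glycophorin that binds the FERM-domain protein of Epb41, was at 770.5 ± 42.37 CPM in FL and 282.5 ± 92.14 CPM in KD (log2 1.45 ± 0.181, adjusted p = 2.15e-05). Piezo1, a stretch-gated channel of the red cell membrane, fell in KD, to 88.48 ± 27.48 CPM, against 208.1 ± 23.68 CPM in control (adjusted p = 0.000228). In delta45 against KD 3 of the 11 were higher and 2 lower (29.2 and 30.7% of all tested genes), and in FL against delta45 5 were higher and 1 lower (25.8 and 27.0%). In FL against control 5 were higher and 2 lower (28.1 and 31.2% of all tested genes), and in delta45 against control 3 and 2 (31.9 and 32.5%).

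The membrane proteins that surround band 3 gave 14 tested genes of 15 listed, with Icam4 at 0 reads in every library. In KD against control 9 of the 14 fell and 1, Cd44, rose, where 24.1% of all tested genes fell and 25.6% rose. The median log2 change was -0.90 over the 14 genes and 0.02 over all tested genes. Rhag, a channel of the Rh complex, was at 886.7 ± 46.9 CPM in FL, 247.9 ± 29.36 CPM in delta45, 122 ± 24.92 CPM in KD and 269.9 ± 52.85 CPM in control. It rose in FL against KD (log2 2.86 ± 0.175, adjusted p = 4.4e-08).

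In FL against KD 9 of these 14 genes rose and 3 fell (26.3 and 31.7% of all tested genes), and in delta45 against KD 7 rose and 3 fell (29.2 and 30.7%). Car2, the carbonic anhydrase that makes bicarbonate for exchange by band 3, was 5.47-fold higher in FL than in KD and 2.50-fold higher in delta45 than in KD (adjusted p = 2.13e-09 and 2.26e-07). Slc2a1, a glucose transporter, was at 20.18 ± 2.671 CPM in delta45 and 238.6 ± 92.91 CPM in KD (log2 -3.56 ± 0.265, adjusted p = 3.63e-07). Of the 14, 9 were higher and 3 lower in FL against delta45 (25.8 and 27.0% of all tested genes). Against control, 5 were higher and 7 lower in FL (28.1 and 31.2% of all tested genes), and 2 were higher and 7 lower in delta45 (31.9 and 32.5%). In FL against control the Kell protein gene Kel was lower (53.95 ± 10.67 CPM in FL and 98.68 ± 7.67 CPM in control), while Rhag was higher.

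For each of the 9 genes, the genes with the most similar profile over the 12 libraries were found among 10970 tested genes with a symbol, by the root mean square difference of log2 CPM after each gene was centred on its own mean. The libraries share groups and depth, so the measure is a description. The measure was not divided by a gene's own range, and on it Add1 had the closest match. That match was Eif2ak1, a kinase that responds to low heme, at a difference of 0.0829, where the range of Add1 itself was 1.54. Next to Add1 were also Ampd3 (0.117) and Atg9a (0.133). Tmod1 lay closest to Thsd4 (0.131), Gadd45a (0.178) and Foxo3 (0.265), and Dmtn to Galnt10 (0.137), Mrpl40 (0.167) and Lman2 (0.169). Epb41 lay closest to Tent5c (0.142), Hemgn (0.159) and Cbfa2t3 (0.167). Hemgn encodes a nuclear protein of erythroid cells and Cbfa2t3 a corepressor found with the LDB1 complex. Epb42 had Ranbp10 (0.234) and Iqsec1 (0.301) among its 3 nearest genes.

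Sptb was nearest to Ninl (0.181), Madd (0.203) and Cnppd1 (0.206), and Ank1 to Lss (0.269), Cspp1 (0.282) and Ankrd16 (0.284). Lss, an enzyme of cholesterol synthesis, averaged 51.19 CPM in FL, 72.5 CPM in delta45, 25.39 CPM in KD and 38.18 CPM in control, the same order of groups as Ank1. Add2 and Slc4a1 had the largest differences from their nearest genes, Rab3il1 at 0.402 and Hba-x at 0.669. Their own ranges were also wide, 3.49 for Add2 and 5.54 for Slc4a1, against 1.55 for Sptb and 2.44 for Ank1. Next came Mxi1 (0.451) and Treml1 (0.465) for Add2, and Col4a2 (0.812) and Hsd3b1 (0.814) for Slc4a1. Hba-x, an embryonic globin, averaged 0.839 CPM in FL, 0.0877 CPM in delta45, 0.212 CPM in KD and 2.894 CPM in control, so its profile rests on few reads.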

How the data were processed

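Polyadenylated RNA of induced MEL cells was sequenced in 12 libraries made with the TruSeq RNA kit V2, per the labels. The authors deposited raw counts for each Ensembl gene, in whole numbers. The build was mm9, and DESeq 1.10.1, HTSeq 0.5.3p9, TopHat 1.4.1 and cutadapt 1.1 are listed, per the submitters' processing notes, without settings or annotation. Tally rows without a gene (reads outside genes, 2.117 to 6.133% of tallied reads; ambiguous, 1.33 to 1.809%; aligned to several places, 38.69 to 53.31%) were left out. Symbols matched 32919 of 37991 identifiers.

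After filterByExpr (12837 genes kept), edgeR 4.0.16 in R 4.3.3 was run with TMM scaling and 4 group means. Standard errors are the absolute log2 change over the root of F, and intervals use the fit's t quantile. Exon lengths and overlaps came from GENCODE for GRCm38, another build than the authors', and promoters from RefSeq GRCm38.p6. The test was also run on simulated counts for the KD and control libraries alone. Both groups had the same spread there, unlike the data, so that run does not bear on the wider spread of KD. The closest replicates of a group differed by a chi-square of 2.223 per degree of freedom, above counting noise.

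The members and lists were chosen with earlier results of these data known. All 9 genes are named in each comparison; lists are given as counts with up to 4 examples by smallest adjusted p per comparison, whose values may also be given in other comparisons, and the 3 nearest genes by profile are named. Genes that share exons with a member, and Cd44 as the single riser of its list, were named outside that rule, after their values were seen. Some genes that these rules would name are not reported here.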

Additional observations from a re-analysis of the deposited data

How the results depend on the processing

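Over 756 refits of the 54 log2 changes (9 genes in 6 comparisons), 698 kept their call, 47 lost it, 11 gained one and 0 changed sign with a call. RLE scaling changed 1 call, DESeq2 1, library totals 4, no filter 4, the 6 libraries alone 6, a minimum of 1 CPM in 3 libraries 0, and a test against a fold of 1.5 changed 12. With library totals, no filter or the 6 libraries alone, 2 genes were lower in FL against control. Of all genes, 7477 of 12837, 7869 of 20281 and 8093 of 12160 were called under these settings. Of those called, 31.8, 46.2 and 47.3% were higher and the rest lower. Against a fold of 1.5, 1 gene stayed higher in KD against control, 2 were higher and 1 lower in delta45 against KD, 0 were lower in FL against delta45 and 1 was higher in delta45 against control. Of 12837 genes, 2387 were then called in KD against control, 3510 in FL against KD and 3506 in delta45 against KD. Another 3233 were called in FL against delta45, 3835 in FL against control and 4596 in delta45 against control. The usual test called 6380, 7445, 7693, 6778, 7616 and 8271 in these 6 comparisons. Of the genes called against a fold of 1.5, 46, 38.7, 44, 44.9, 37.3 and 45% were higher, in the same order.

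Leaving out 1 library gave 1 to 4 genes lower in delta45 against KD, and 1 gene lower in FL against delta45 in each of 6 cases. Of all genes, 6601 to 8334 were then called in delta45 against KD, 49.5 to 50.8% of them higher. In FL against delta45 5772 to 6270 were called, 48.8 to 51.4% of them higher. The difference in the log2 ratio of Sptb to Sptbn1 ran from -0.139 to 0.916 in KD against control and from -0.405 to 0.65 in delta45 against KD, and that of Add2 to Add1 ran from -0.025 to 0.597 in FL against KD.

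No label says what a replicate number marks, and same-number correlations ran from -0.143 to 0.215, so the numbers were not used to pair the samples. As a hint from the data, not the design, 9 of 12 libraries correlated best with their own number. Each library had 3 numbers to match, and values were centred within each group, so the 12 outcomes are not independent. Whether 9 is more than chance would give was not tested. With a replicate block 6593, 7627, 7849, 6936, 7819 and 8408 genes were called in those 6 comparisons, and no call for the 9 genes changed. Depth limits Slc4a1 most, with 21 to 153 reads per KD library and 28 to 44 per delta45 library. The cause of these changes was not tested.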
